A study of Homo sapiens with 30 samples.

Results

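The comparison described here sets HCT116 cells given 10 μM Omomyc for 6 h beside untreated HCT116 cells, 3 libraries against 3. The libraries were found in the deposited table of expression values by the sample descriptions. Every gene with a mean of at least 0.5 RPKM (read counts scaled by transcript length and by the reads mapped in the library) over these 6 libraries was a member, which gave 14785 of the 57992 genes in the table, and the 6 libraries were among 30 in the series. HCT116 is an established colon carcinoma line that the labels class as having stabilized MYC. The treated cells received recombinant Omomyc made in E. coli and carried into the cells with ProteoJuice, a protein transfection reagent applied in Opti-MEM. By the methods, medium with serum was added in incubations longer than 4 h. The untreated cells carry no time in the labels, and the methods do not make clear whether they were given the reagent, so Omomyc itself and the handling that went with it cannot be told apart here. Total RNA, depleted of ribosomal RNA, was sequenced with a stranded kit. HCT116 cells given a lower dose for 6 h (2 μM in the labels, 2.5 μM in the methods) and cells given 10 μM for 24 h, 3 libraries each, serve for comparison below. The libraries titled 24 h carry a time label of 4 h and are called by their titles. Nothing says that the 3 libraries of a group came from separate cultures, so the p-values measure only the spread between these libraries, which may be technical.

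MYC is a basic helix-loop-helix leucine zipper transcription factor that binds DNA as a heterodimer with MAX, preferentially at the E box, and is known for driving ribosome biogenesis, nucleotide synthesis and cell cycle entry. Omomyc is a miniprotein cut from the same domain of MYC, with leucine zipper residues changed so that it can pair with itself, with MAX and with MYC, and it carries no transactivation domain. In colon carcinoma cells MYC transcription is fed by WNT signalling, and MXD and MNT proteins compete with MYC for MAX. The question behind the comparison is which transcripts differ early after Omomyc reaches the cells.

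The RPKM summed over all genes ran from 593633 to 660769 in the untreated libraries and was 791845, 795720 and 1051041 in treated replicates 1, 2 and 3. The share of that sum taken by RN7SL1 and RN7SL2, the near-identical genes for the RNA of the signal recognition particle, was 10.8% to 15.4% in untreated cells and 20.3%, 17.5% and 37.2% in the treated ones. Treated replicate 3 therefore stood apart, and its log2 values correlated with those of treated replicates 1 and 2 at r = 0.966 to 0.971, against 0.990 between those 2 and 0.993 to 0.994 among the untreated libraries. Nuclear protein-coding genes summed to between 437498 and 442985 RPKM in untreated and between 405775 and 426077 RPKM in treated libraries. Of 10 colon epithelial markers, 6 were at or above 0.5 RPKM in all 6 libraries and 2, CDX1 and CEACAM5, were at 0 in all 6, with a summed level of 1451 to 1483 RPKM in untreated and 1095 to 1749 RPKM in treated cells, and EPCAM, the epithelial adhesion molecule, was at 104 ± 4.53 (SD, n = 3) and 166 ± 19.3 RPKM. Of 10 B cell markers 2 were at 0 in all 6 libraries, and the list summed to at most 4.91 RPKM in any of them. In bulk RNA, fewer cells with a transcript and less of it per cell cannot be told apart. RPKM keeps no sequencing depth, so no counting interval can be given.

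**Figure D1:**
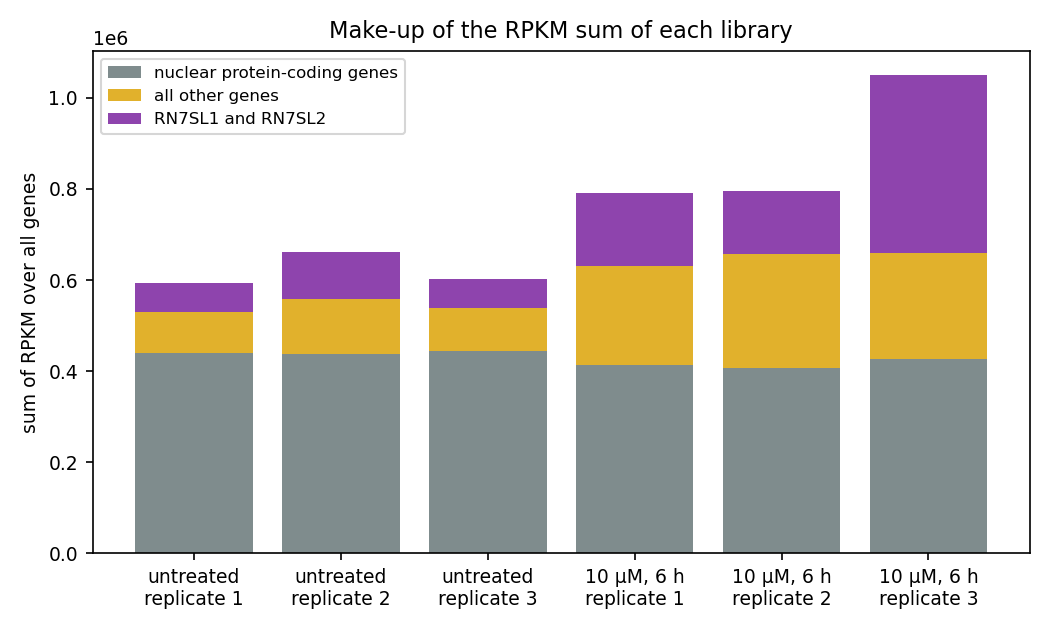
RPKM summed over all genes in each of the 6 libraries (x axis: library, y axis: summed RPKM), stacked as nuclear protein-coding genes, all other genes, and RN7SL1 with RN7SL2. The nuclear protein-coding part stays between 405775 and 442985 in every library, while the 7SL part makes up 37.2% of treated replicate 3.

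Of the 14785 genes, 4439 (30%) passed an adjusted p of 0.05 in limma on log2(RPKM + 0.5). Of these, 1307 (8.84% of the genes tested) rose and 3132 (21.2%) fell, and the median log2 difference over all genes was -0.11. With each library rescaled by the median ratio of its genes, the median became 0.01 and the calls split into 2136 higher and 2350 lower, so that 47.6% of calls were rises against 29.4% as deposited. Leaving out treated replicate 3 raised the calls to 7565, of which 2965 were higher and 4600 lower, while leaving out untreated replicate 1, 2 or 3 lowered them to 1885, 2053 and 1813. Calls with the same sign as deposited, with median-ratio scaling and without treated replicate 3 numbered 1264 higher (8.55%) and 2350 lower (15.9%). The 3 treated libraries lay wholly above or wholly below the 3 untreated ones in 7419 genes (50.2%). Large changes, of at least 1 on the log2 scale, were found in 338 called genes upward and 347 downward. The sizes given below are on the log2(RPKM + 0.5) scale, which understates the change of low genes, and are read against the median of -0.11. Counts of list members are read against the 8.84% of all genes that rose and the 21.2% that fell.

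The genes with the largest rises among protein-coding genes were those of secreted matrix proteins, of mitochondrially encoded respiratory subunits, and of the early response of cells to stimulation. CCN1, which encodes a matricellular protein and is a target of YAP and TEAD, stood at 4.43, 4.44 and 4.60 RPKM in untreated cells and at 107, 150 and 103 RPKM in treated cells. The lowest treated library lay far above all untreated ones. This was a 26.7-fold higher mean and a log2 difference of 4.57 (SE 0.15, adjusted p = 4.32e-05). CCN2, of the same family, went from 1.39, 0.711 and 1.10 RPKM to 18.1, 28.0 and 22.9 RPKM, again with no overlap (log2 difference 3.91, SE 0.21, adjusted p = 0.000145). THBS1, encoding thrombospondin 1, was at 4.07 ± 0.384 RPKM (SD, n = 3) in untreated and 66.8 ± 21.1 RPKM in treated cells, a 16.4-fold rise. CPA4, a carboxypeptidase gene, rose 16.7-fold to 36.3 ± 11.9 RPKM and CXCL8, the neutrophil chemokine interleukin 8, rose 13.2-fold to 13.5 ± 4.97 RPKM. Treated replicate 3 was the highest library for CXCL8 and the lowest of the treated for THBS1 and CPA4. The 12 largest rises were completed by NR4A1 and 6 mitochondrial mRNAs, both described below. The plot of the largest changes shows each of the 24 genes by library, and no treated library reaches the untreated range, as the rule for naming them required.

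**Figure D2:**
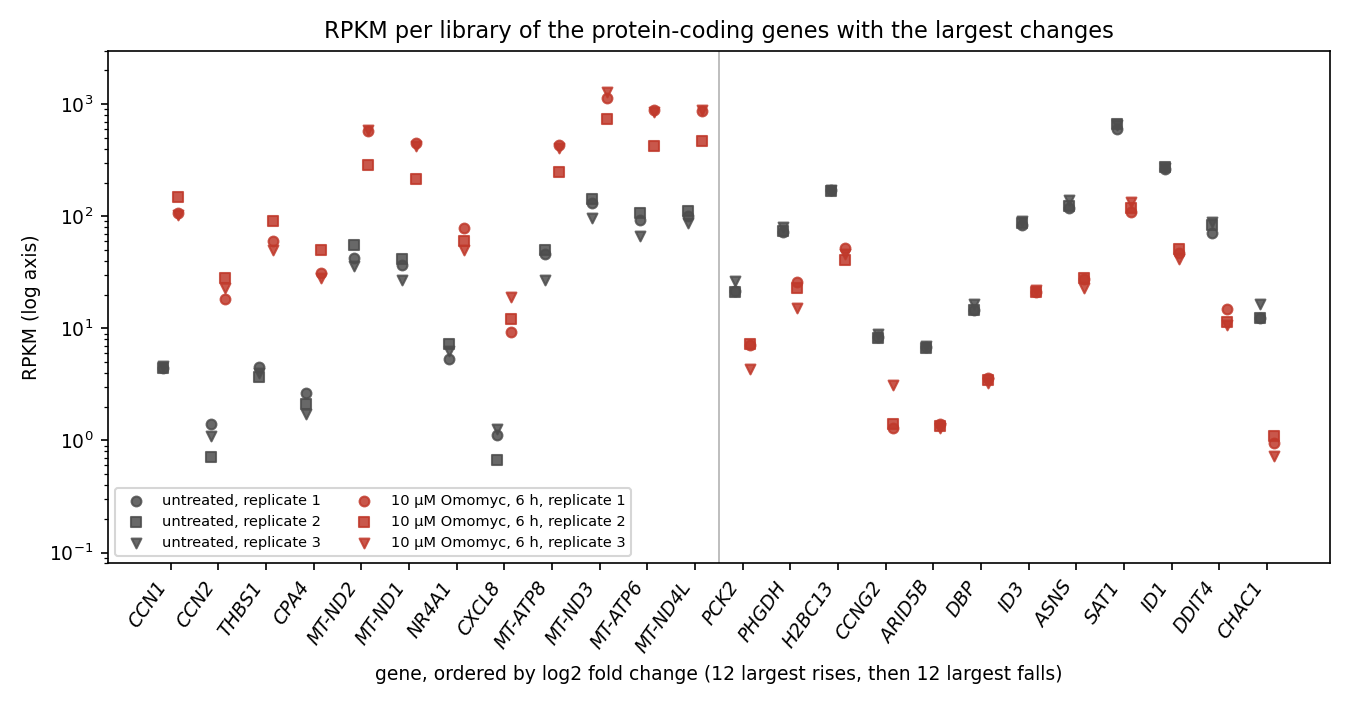
RPKM (log axis) in each of the 3 untreated and 3 treated libraries for the 12 largest rises and the 12 largest falls among protein-coding genes called with the same sign in 3 fits. In CCN1 the untreated points lie at 4.43 to 4.60 and the treated ones at 103 to 150, and in CHAC1 the order is turned, with 12.3 to 16.5 untreated and 0.721 to 1.09 treated.

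The immediate early genes, which encode transcription factors induced within minutes to hours of growth factor or stress signals, moved mostly upward: 16 of 23 tested rose and 4 fell, beside 8.84% and 21.2% of all genes, and their median log2 difference was 1.10. The falls numbered 1 without any one untreated library, where 15 or 16 rose. By role, all 6 tested EGR and NR4A genes rose (median 2.17) and 5 of 7 genes of the FOS and JUN family rose. NR4A1, an orphan nuclear receptor, was at 5.34, 7.28 and 6.31 RPKM in untreated and 78.8, 60.0 and 49.8 RPKM in treated cells (log2 difference 3.20, SE 0.18, adjusted p = 0.000183). ATF3, a stress-induced bZIP factor, was at 7.61, 7.73 and 7.81 RPKM before and 45.4, 48.3 and 50.5 RPKM after, with replicates of each group close together and far from the other group (2.56, SE 0.09, adjusted p = 4.32e-05). JUN, a subunit of AP-1, stood at 7.24, 7.89 and 8.18 RPKM untreated and 51.5, 52.4 and 35.5 RPKM treated. FOSL1, its partner FRA1, rose 4.69-fold to 52.5 ± 8.26 RPKM, and EGR3 rose 7.26-fold to 5.02 ± 1.09 RPKM. EGR2, which the study followed by PCR at 24 h and reported as lower then, was at 0.708, 0.941 and 0.491 RPKM untreated and 4.54, 3.26 and 3.0 RPKM treated (1.75, SE 0.20, adjusted p = 0.00162). FOS itself did not share this direction. It was at 106, 115 and 98.4 RPKM in untreated and 76.0, 89.1 and 72.5 RPKM in treated cells, a log2 difference of -0.43 (SE 0.12, adjusted p = 0.0291) that missed the threshold under 9 of 19 alternatives. BTG2, an antiproliferative gene, fell by 0.62 on the log2 scale, and IER5 fell by 0.51 and KLF10, which missed the threshold under 7 of 19 alternatives, by 0.39. JUNB (0.23), KLF2 (-0.07) and MCL1 (0.28) did not pass.

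Serum response factor, SRF, binds a sequence called the CArG box upstream of several of these genes, and SRF mRNA itself stood at 10.5, 10.5 and 10.7 RPKM in untreated and 26.5, 26.2 and 20.2 RPKM in treated cells (log2 difference 1.16, SE 0.13, adjusted p = 0.00132). EGR1, a zinc finger factor, was at 21.8, 20.3 and 21.5 RPKM and then 79.4, 59.8 and 77.3 RPKM (1.73, SE 0.13, adjusted p = 0.000413). In both genes the 2 groups were well apart. RefSeq windows from 250 bases before to 50 after the transcript start (GRCh38.p14) were matched to 10533 of the 14785 genes, and the CArG box, searched on both strands, was found in 0.987% of them. Among the 17 immediate early genes with a window it was found in 2, EGR1 and SRF. Both stretches are shown 5′ to 3′ in the direction of transcription, with the CArG boxes in capitals.
EGR1, chr5:138465362-138465441, plus strand: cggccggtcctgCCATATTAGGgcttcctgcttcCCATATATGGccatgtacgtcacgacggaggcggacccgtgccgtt
SRF, chr6:43171189-43171268, plus strand: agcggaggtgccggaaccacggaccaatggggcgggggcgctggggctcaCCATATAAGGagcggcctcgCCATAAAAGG
A match is a description of these letters, and binding of SRF was not measured.

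Other early programs moved beside these. Of 15 tested YAP and TEAD targets, 6 rose and 2 fell (median log2 difference 0.40), and the rises beyond CCN1 and CCN2 were NUAK2 (1.72), F3, encoding tissue factor (1.62), FJX1 (1.03) and NT5E (0.79). AMOTL1 and PTPN14, both negative regulators of YAP, fell by 0.50 and 0.41, and neither passed with median-ratio scaling, under which 8 genes of the list rose and 0 fell. Of 13 NF-kB targets, 8 rose and 1 fell (median 0.67). NFKBIA, the feedback inhibitor of NF-kB, was at 16.2, 14.6 and 15.5 RPKM untreated and 32.7, 34.9 and 28.9 RPKM treated, without overlap (1.03, SE 0.11, adjusted p = 0.00109). The chemokine genes CXCL2 (1.78), CXCL1 (1.22) and CXCL3 (0.67) rose, as did TNFAIP3 (1.23), RELB (1.39) and BIRC3 (0.66), while TNIP1 fell by 0.50.

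Genes read as output of ERK signalling went in both directions, with 6 of 22 higher and 6 lower, beside 8.84% and 21.2% of all genes. Without treated replicate 3 the counts were 8 and 9, and without untreated replicate 1 they were 5 and 3. The rises lay among the growth factors. AREG, encoding amphiregulin, was at 180, 196 and 200 RPKM and then 526, 596 and 559 RPKM, and EREG, encoding epiregulin, was at 178, 178 and 176 RPKM and then 464, 541 and 548 RPKM. Both groups were tight and apart, at a log2 difference of 1.54 in each gene (adjusted p = 0.000324 for AREG and 0.000354 for EREG). HBEGF (1.37), PLAUR (1.22) and LIF (0.95) rose too, and the phosphatase DUSP5 rose 3.87-fold from 30.0 ± 1.04 to 116 ± 10.8 RPKM. All 3 ETV transcription factors fell: ETV1 went from 20.4 ± 0.433 to 7.75 ± 0.177 RPKM, ETV5 from 32.1 ± 1.14 to 14.6 ± 1.08 RPKM, and ETV4 fell by 0.50 on the log2 scale, a call lost with median-ratio scaling (adjusted p = 0.0554). The feedback inhibitors DUSP6, SPRY4 and SPRY1 fell by 0.90, 0.80 and 0.56.

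Of the 12 largest falls, 5 (CHAC1, DDIT4, ASNS, PHGDH and PCK2) were genes induced by the transcription factor ATF4 when amino acids are short or the eIF2 kinases are active. Of 39 tested ATF4 response genes, 29 fell and 1 rose, with a median log2 difference of -0.72, and 26 fell with median-ratio scaling. The rises numbered 6 without treated replicate 3, 4 of them transporters. CHAC1, which degrades glutathione, had the largest fall of all named genes, from 12.3, 12.5 and 16.5 RPKM to 0.943, 1.09 and 0.721 RPKM. The treated libraries were all below the untreated ones, at a log2 difference of -3.33 (SE 0.16, adjusted p = 0.000145). ASNS, encoding asparagine synthetase and followed by PCR in the study, was at 118, 123 and 141 RPKM untreated and 27.4, 27.9 and 22.8 RPKM treated, 4.88-fold lower (-2.27, SE 0.12, adjusted p = 0.000145). DDIT4, encoding the mTORC1 inhibitor REDD1, was at 70.6, 83.3 and 88.6 RPKM untreated and 14.9, 11.4 and 10.6 RPKM treated, so all 3 genes were separated by several-fold. In the serine and one-carbon branch 5 of 6 genes fell, among them PHGDH, the first enzyme of serine synthesis (75.6 ± 4.29 to 21.4 ± 5.41 RPKM), and PSAT1, the next one (78.0 ± 5.77 to 31.3 ± 2.38 RPKM). Of 6 genes for other amino acid and related enzymes 5 fell, including PCK2 (-1.82) and GPT2 (-1.39). Of 10 tRNA synthetase and related genes 8 fell, and AARS1, encoding alanyl-tRNA synthetase, was at 100.5, 96.0 and 107 RPKM untreated and 41.4, 40.9 and 24.7 RPKM treated (-1.53, SE 0.20, adjusted p = 0.00224). Of 8 transporters 3 fell, SLC7A11, SLC1A4 and SLC6A9. The mRNA of ATF4 itself was at 287, 308 and 333 RPKM untreated and 171, 187 and 188 RPKM treated (-0.76, SE 0.11, adjusted p = 0.0029), and TRIB3, its target and inhibitor, was 1.93-fold lower. The 1 rise in this list was that of ATF5, a related bZIP factor, at 2.88, 3.41 and 3.56 RPKM and then 8.93, 8.25 and 5.75 RPKM (1.09, SE 0.18, adjusted p = 0.00468). The stress-induced factor ATF3, which rose by 2.56, was counted with the immediate early genes and not in this list.

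The amino acid response element, to which ATF4 binds with C/EBP proteins, was searched as TGATGNAA on both strands. It lay in the windows of 1.61% of all matched genes and of 8 of the 33 matched ATF4 response genes (24.2%). Of these 8, AARS1, ASNS, CHAC1, MARS1 and NARS1 fell, and SLC3A2, SLC7A1 and MTHFD1L did not pass, beside 29 falls among all 39 genes of the list. Among members of the other gene lists, the element lay in the windows of ATF3 (2.56) and PLK3 (1.5), which rose. It also lay in CDC25C (-1.48), HSPA4L (-0.83) and HERPUD1 (-0.59), which fell, and in RPL31 and RPS23, which did not pass. Over protein-coding genes, 30.6% of the 160 with the element fell and 24.5% of the 9781 without it. Their median log2 differences were -0.17 and -0.16, and these shares were not tested. The stretches of 3 genes that fell strongly are shown with the element in capitals, which reads TTGCATCA where it lies on the other strand.
CHAC1, chr15:40953228-40953307, plus strand: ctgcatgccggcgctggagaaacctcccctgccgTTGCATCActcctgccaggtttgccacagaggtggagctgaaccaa
ASNS, chr7:97872431-97872510, minus strand: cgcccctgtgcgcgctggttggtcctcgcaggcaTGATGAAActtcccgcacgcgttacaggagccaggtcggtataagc
AARS1, chr16:70289648-70289727, minus strand: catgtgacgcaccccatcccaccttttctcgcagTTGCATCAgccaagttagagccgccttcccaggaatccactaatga
The ASNS stretch begins 102 bases before the start, that of AARS1 221 and that of CHAC1 243. Whether the place of the element goes with the size of the fall was not tested.

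Beside the ATF4 genes stood the ID genes, inhibitors of helix-loop-helix differentiation factors and early targets of BMP and SMAD signalling. All 3 tested ID genes fell. ID1 was at 264, 274 and 271 RPKM in untreated and 47.0, 50.8 and 41.8 RPKM in treated cells, ID2 at 64.2, 65.0 and 66.5 RPKM and then 15.8, 18.1 and 21.5 RPKM, and ID3, followed by PCR in the study, at 83.4, 86.5 and 91.3 RPKM and then 21.3, 21.2 and 21.8 RPKM. Replicates differed little and the groups were far apart, at log2 differences of -2.53 (adjusted p = 8.16e-05), -1.80 (0.000316) and -2.0 (0.000105). Of the 9 inhibitory SMAD and feedback genes 6 fell, among them SMAD9 (-0.93), SMURF2 (-0.85), SMAD6 (-0.83) and SMAD7 (-0.72). In the whole list of 17 BMP and TGF-beta genes 9 fell and 1 rose (median -0.33), with 5 rises without treated replicate 3.

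SAT1, the acetyltransferase that starts polyamine breakdown and another gene that the study followed, was at 603, 667 and 650 RPKM untreated and 109, 119 and 134 RPKM treated. No library of either group came near the other group, and the mean was 5.30-fold lower (log2 difference -2.40, SE 0.12, adjusted p = 0.000145). Of 7 polyamine catabolism and control genes 3 fell: PAOX, the polyamine oxidase, fell by 0.94, and OAZ1, encoding antizyme, fell by 0.32 and missed the threshold under 10 of 19 alternatives. On the synthesis side SRM, encoding spermidine synthase, stood at 28.6, 23.7 and 23.6 RPKM untreated and 42.7, 34.2 and 30.3 RPKM treated. The treated libraries were higher by a narrow margin, at 0.48 (SE 0.15, adjusted p = 0.0443) as deposited and -0.0039 with every library scaled to an equal RPKM sum, and ODC1 (0.07), SMS (-0.11) and AMD1 (-0.08) did not pass.

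Within the MYC network, MYC and MAX themselves did not pass the test. MYC was at 115, 116 and 124 RPKM in untreated and 171, 169 and 118 RPKM in treated cells, so that treated replicates 1 and 2 lay above and replicate 3 within the untreated range (log2 difference 0.35, SE 0.16, adjusted p = 0.128). Without treated replicate 3 the difference was 0.53 and passed (adjusted p = 0.000232), it passed with median-ratio scaling at 0.49 (0.0248), and at an equal RPKM sum its sign turned (-0.14). MAX was at 15.1, 19.4 and 16.1 RPKM and then 13.9, 13.9 and 16.5 RPKM, with overlapping groups (-0.18, SE 0.13, adjusted p = 0.319). Of 12 network genes 1 rose and 4 fell, and 4 rose and 4 fell both with median-ratio scaling and without treated replicate 3, 2 of those rises being in the MLX branch, a parallel arm of the network. MNT, the broadly expressed MAX-binding repressor, was at 4.32, 4.26 and 4.25 RPKM untreated and 9.19, 8.75 and 6.92 RPKM treated (0.87, SE 0.13, adjusted p = 0.00365). The other repressors that passed went down: MXD4 from 6.33 ± 0.384 to 2.75 ± 0.360 RPKM, MXD3 from 15.6 ± 0.684 to 7.40 ± 1.12 RPKM, and MXI1 from 23.0 ± 1.35 to 13.1 ± 2.18 RPKM. MYCL, a MYC paralogue, was 2.95-fold lower, at 1.65 ± 0.566 RPKM after treatment.

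Of 31 growth and metabolism genes that MYC is known to activate, 3 rose and 5 fell, beside 8.84% and 21.2% of all genes. Their median log2 difference was -0.15, against -0.11 over all genes and -0.16 over protein-coding genes. These counts were 4 higher and 2 lower with median-ratio scaling, 7 and 12 without treated replicate 3, and 1 higher with 0 or 1 lower without any one untreated library. Without treated replicate 1 they were 1 and 3, and without treated replicate 2 they were 1 and 5. The rises were SRM, HK2, encoding hexokinase 2 (0.48), and CTPS1, encoding CTP synthase (0.50). The falls were SHMT1 (-0.70) and the purine genes PAICS (-0.47) and PRPS2 (-0.37), then PKM (-0.69) and CDK4 (-0.34). CDK4, the G1 kinase, was at 135, 129 and 129 RPKM untreated and 106, 107 and 96.4 RPKM treated, a small but complete separation (adjusted p = 0.0303) that missed the threshold under 8 of 19 alternatives. PRPS2 missed it under 10, PKM and SRM under 8 each, and HK2 under 7. PKM was lowest in treated replicate 3, at 322 RPKM against 564 and 549 RPKM in the other treated libraries and 735 to 761 RPKM untreated. At an equal RPKM sum, to which the 7SL RNAs contribute up to 37.2%, 0 of these genes rose and 19 fell.

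Ribosome biogenesis, the best known MYC program, moved upward in part. Of 52 tested genes 13 rose and 0 fell (median 0.17), and with median-ratio scaling 23 rose and 0 fell. Assembly factors of the large subunit held 6 of the rises. NOP16, one of these factors and a MYC target, was at 22.2, 24.4 and 23.2 RPKM in untreated and 38.6, 42.0 and 41.4 RPKM in treated cells, a clear separation (0.79, SE 0.09, adjusted p = 0.00172). NOP56, a core protein of box C/D small nucleolar ribonucleoproteins, was at 220, 224 and 223 RPKM and then 343, 362 and 454 RPKM, and GAR1, of the box H/ACA class, at 9.26, 8.81 and 8.67 RPKM and then 15.3, 13.8 and 18.7 RPKM. EBNA1BP2 went from 66.4 ± 0.933 to 98.0 ± 8.49 RPKM, and RRP12 (0.96), TAF1D (0.85), NOP2 (0.61) and LYAR (0.44) rose as well. The count for this list depended on scaling and on single libraries. It was 29 higher and 3 lower without treated replicate 3, 7, 5 and 7 higher without untreated replicate 1, 2 or 3, and 0 higher with 6 lower at an equal RPKM sum. Of the 79 tested cytosolic ribosomal protein genes RPL27 rose and RPL3 fell (median 0.12), and without treated replicate 3 the counts were 3 higher and 22 lower. A list was made of 10 genes among those whose promoters the study examined by chromatin immunoprecipitation. Of these, LYAR and PUS1 rose as deposited, with the sign turned at an equal RPKM sum (-0.0485 and -0.0678). FBXW8 fell, and the other 7 genes, NPM1 (-0.12) and NCL (0.33) included, did not pass. The study chose these promoters for their E boxes. In the promoter windows used here, 5 of the 10 genes were matched, and CACGTG lay in 2 of these, FBXW8 and HSPBAP1.

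The canonical E box, CACGTG, which reads the same on both strands, lay in the windows of 1074 of the 10533 matched genes (10.2%). It was found in 15 of 45 matched ribosome biogenesis genes (33.3%), 10 of 28 MYC-activated genes (35.7%), 4 of 33 ATF4 response genes and 0 of 17 immediate early genes. Shares were also high in other lists, at 4 of 8 MYC-repressed genes (50%), 4 of 13 lysosome and autophagy genes (30.8%) and 3 of 11 MYC network genes (27.3%). Stretches are shown for genes that moved in opposite directions, with the E boxes in capitals: EBNA1BP2, SRM and MNT rose as deposited, and CDK4 and MXD4 fell. At an equal RPKM sum none of the 3 rises passed, at 0.063 for EBNA1BP2 (adjusted p = 0.814), -0.0039 for SRM and 0.42 for MNT (adjusted p = 0.156).
EBNA1BP2, chr1:43172741-43172820, minus strand: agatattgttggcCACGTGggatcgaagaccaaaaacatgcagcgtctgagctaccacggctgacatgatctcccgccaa
SRM, chr1:11060172-11060251, minus strand: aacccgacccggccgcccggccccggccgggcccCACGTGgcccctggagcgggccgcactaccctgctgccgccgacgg
MNT, chr17:2401208-2401287, minus strand: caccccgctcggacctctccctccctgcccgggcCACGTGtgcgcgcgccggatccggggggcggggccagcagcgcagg
CDK4, chr12:57752481-57752560, minus strand: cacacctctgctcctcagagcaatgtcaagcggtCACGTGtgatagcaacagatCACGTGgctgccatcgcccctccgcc
MXD4, chr4:2262280-2262359, minus strand: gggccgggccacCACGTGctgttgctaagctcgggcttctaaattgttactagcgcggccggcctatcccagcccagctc
CDK4 holds 3 E boxes in the 250 bases before its start, 2 of them in this stretch, and each of the others holds 1. Over all protein-coding genes, an E box was found in 10.7% of those that rose, 8.92% of those that fell and 10.7% of those that did not pass. The median log2 difference was -0.12 over the 1017 protein-coding genes with an E box and -0.16 over the 8924 without one. These shares describe the windows and were not tested.

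**Figure D3:**
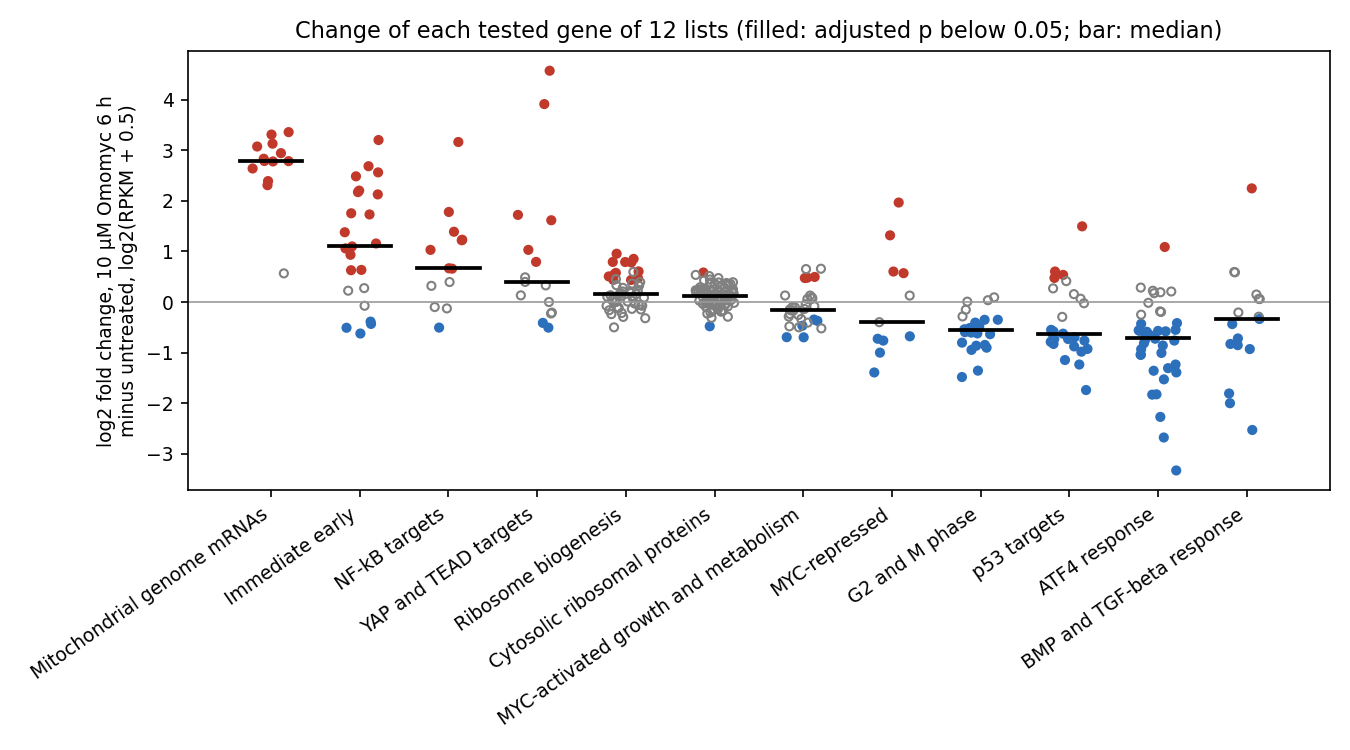
Log2 difference (10 μM Omomyc 6 h minus untreated, log2(RPKM + 0.5)) of each tested gene in 12 gene lists. Filled points have an adjusted p under 0.05 and bars are list medians, which run from 2.79 for the mitochondrial mRNAs and 1.10 for the immediate early genes to -0.72 for the ATF4 response genes.

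Genes that MYC is known to repress split by role. The cyclin-dependent kinase inhibitors went down in 4 of 5 cases. CDKN1A, encoding p21, was at 65.5, 70.8 and 74.8 RPKM untreated and 43.7, 42.7 and 37.7 RPKM treated (-0.76, SE 0.10, adjusted p = 0.00268), and CDKN1B, encoding p27, at 15.1, 16.0 and 16.3 RPKM and then 8.58, 9.15 and 10.4 RPKM. CDKN1C (p57) was 3.06-fold lower and CDKN2C (p18) 2.31-fold lower, and CDKN2B did not pass (-0.40). The groups did not overlap in any of these 5, as was the case in 50.2% of all genes. Of the other 6 repressed genes, KLF6 rose 4.02-fold from 12.4 ± 1.23 to 49.7 ± 2.14 RPKM, GADD45B rose 2.60-fold, GADD45A and KLF4 rose by 0.60 and 0.57 on the log2 scale, and NDRG1 fell by 0.68.

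Targets of p53, which is intact in HCT116 cells, fell more often than they rose, with 16 of 26 lower and 4 higher (median -0.62), or 11 or 12 lower and 2 higher without any one untreated library. TP53INP1, a proapoptotic gene, was at 6.34, 5.90 and 6.46 RPKM untreated and 1.51, 1.38 and 1.68 RPKM treated, which left the groups wide apart (-1.74, SE 0.12, adjusted p = 0.000324). BBC3, encoding PUMA, fell by 1.14, SESN1 by 0.92, GDF15 by 0.83 and CCNG1 by 0.79. The rises were PLK3 (1.5), GADD45A (0.60), PMAIP1 (0.54) and AEN (0.48), and MDM2 did not pass (-0.29). SESN2, CDKN1A, BTG2 and GADD45A are counted in other lists here too. CCNG2, an unconventional cyclin named by its fall and not a member of the list, was at 8.41, 8.16 and 8.89 RPKM and then 1.28, 1.39 and 3.12 RPKM. ARID5B, encoding a chromatin-associated DNA-binding protein and likewise named by its fall, went from 6.85 ± 0.105 to 1.35 ± 0.0615 RPKM.

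Cell cycle genes fell at 6 h mainly in the G2 and M phase list. Of 24 tested G2 and M phase genes 19 fell and 0 rose (median -0.54), and 16 fell with median-ratio scaling. TOP2A, the mitotic topoisomerase, was at 81.1, 78.5 and 80.5 RPKM untreated and 32.0, 34.9 and 26.8 RPKM treated, with no overlap (-1.35, SE 0.12, adjusted p = 0.000572). CDC25C, the phosphatase that activates CDK1, went from 13.9 ± 1.48 to 4.80 ± 1.42 RPKM, TTK from 44.0 ± 1.61 to 22.7 ± 1.68 RPKM and KIF11 from 32.0 ± 1.25 to 16.9 ± 1.15 RPKM. CDK1 fell by 0.80, while CCNB1 (0.09), MKI67 (0.04), CDC20 (0.01) and PLK1 (-0.15) did not pass. Leaving out untreated replicate 1, 2 or 3 gave 7, 8 and 7 falls. Of 32 G1 and S phase genes 9 fell as deposited (list median -0.25). That share was near the one over protein-coding genes, of which 2995 of 12266 fell. The falls included POLA1 (-0.69), MCM2 (-0.68) and RRM1 (-0.65), and CCNE2 rose by 0.35 as deposited, or -0.13 at an equal RPKM sum. The falls in this list numbered 18 without treated replicate 3, 5 with median-ratio scaling, and 1, 2 and 1 without untreated replicate 1, 2 or 3. H2BC13, a replication-dependent histone gene of a family of near-identical copies, went from 173, 167 and 172 RPKM to 51.6, 41.0 and 46.5 RPKM.

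**Figure D4:**
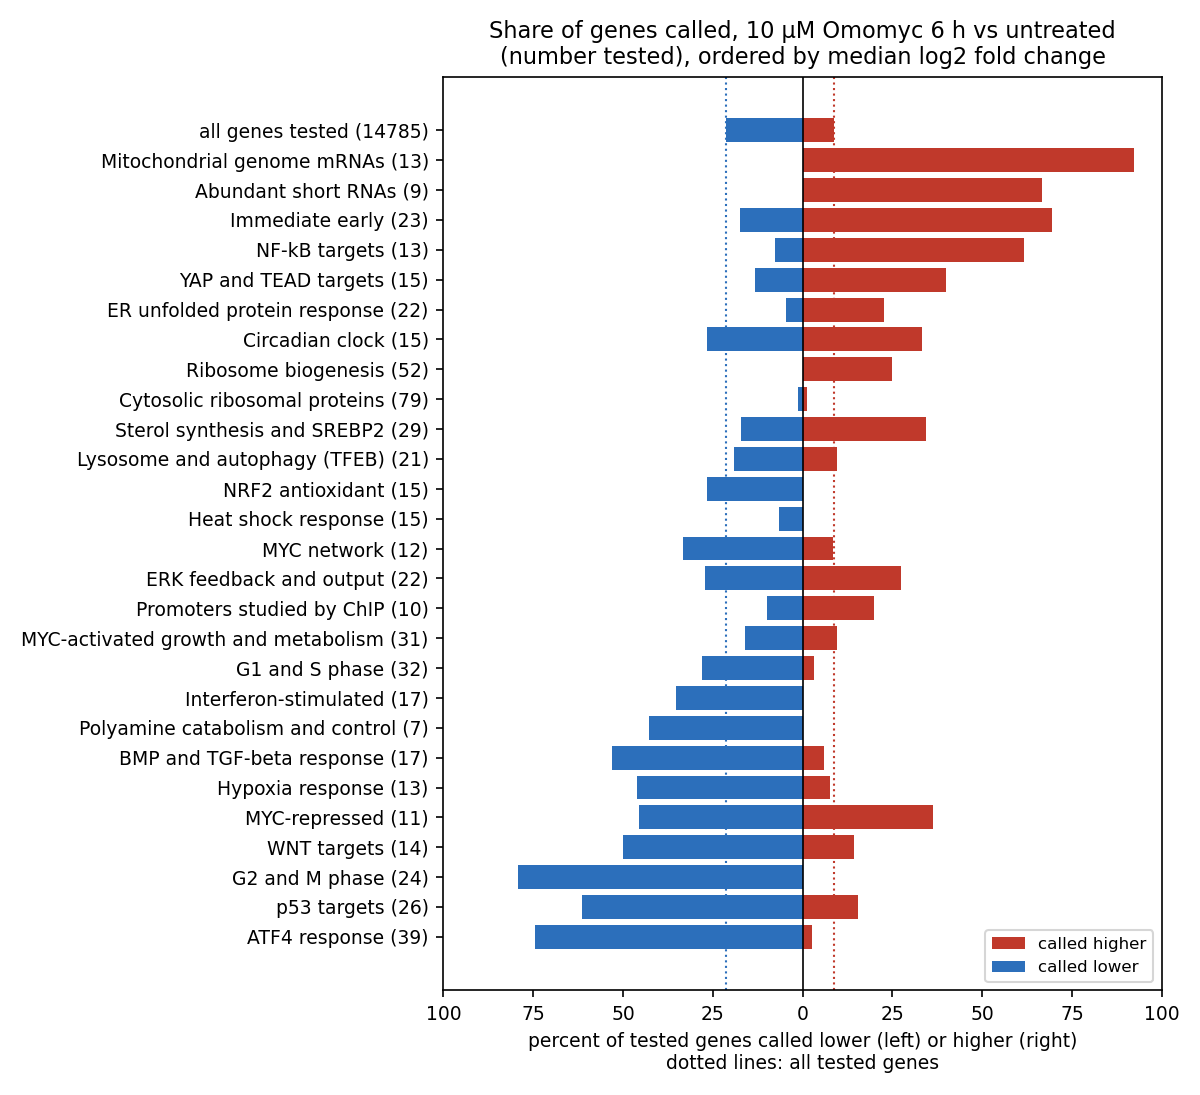
Percent of the tested genes of each list that were called higher (right) and lower (left), ordered by the median of the list, with dotted lines at 8.84% and 21.2%, the shares over all genes. The mitochondrial mRNAs and immediate early genes lie furthest to the higher side, and the G2 and M phase and ATF4 response genes furthest to the lower side.

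Of 29 sterol genes 10 rose and 5 fell (median 0.08), and 8 of the rises lay among the 20 synthesis enzymes. The rises numbered 16 without treated replicate 3 and 6 without untreated replicate 1 or 3. HMGCS1, an early enzyme of the mevalonate pathway, was at 16.9, 14.7 and 15.1 RPKM untreated and 35.2, 39.4 and 37.2 RPKM treated (1.24, SE 0.10, adjusted p = 0.000522). INSIG1, which holds SREBP in the endoplasmic reticulum, rose 3.49-fold to 46.5 ± 3.32 RPKM. The 5 falls were ABCA1 (-1.05), ABCG1 (-0.80) and MYLIP (-0.67), which are targets of the liver X receptors, with LSS and FDFT1. Of 22 genes of the unfolded protein response of the endoplasmic reticulum 5 rose and 1 fell (median 0.24): the chaperone genes CALR (0.90), DNAJB9 (0.85), DNAJB11 (0.77), SDF2L1 (0.70) and MANF (0.49) rose, and HERPUD1 fell by 0.59. HSPA5, encoding BiP, did not pass (0.62). The list of the unfolded protein response held 15 rises without treated replicate 3, 10 with median-ratio scaling, 3, 3 and 2 without untreated replicate 1, 2 or 3, and 0 at an equal RPKM sum. Of 15 cytosolic chaperone genes of the heat shock response 0 rose and 1 fell as deposited, HSPA4L by 0.83, and 6 rose without treated replicate 3 and 3 with median-ratio scaling.

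Of 15 circadian clock genes 5 rose and 4 fell, and the 8 tested repressors went both ways, with 5 higher and 2 lower. Among the repressors, CRY1 was at 4.91, 5.63 and 5.09 RPKM untreated and 11.4, 12.1 and 11.3 RPKM treated, and BHLHE40 at 9.74, 8.96 and 9.19 RPKM and then 29.4, 25.3 and 18.1 RPKM. PER2 (0.70), PER1 (0.48) and CRY2 (0.48) rose too, while the repressors NR1D1 and NR1D2 fell by 1.13 and 0.75. Of the 4 output genes, TEF fell by 0.83 and DBP was at 14.6, 14.6 and 16.4 RPKM and then 3.61, 3.46 and 3.27 RPKM (-1.99, SE 0.11, adjusted p = 0.000145). The activators CLOCK, BMAL1 and NPAS2 did not pass. The rises in the list numbered 3, 3 and 2 without untreated replicate 1, 2 or 3, and the falls 4 each time. Of 14 WNT targets 7 fell and 2 rose (median -0.51): AXIN2, the standard readout of the pathway, went from 19.7 ± 1.19 to 11.1 ± 1.34 RPKM, EPHB3 from 2.82 ± 0.0894 to 1.13 ± 0.353 RPKM, and DKK1, a secreted inhibitor, rose 2.60-fold. CD44 rose by 0.44 as deposited, with -0.0495 at an equal RPKM sum. The falls in the WNT list numbered 3, 3 and 4 without untreated replicate 1, 2 or 3. Of 13 hypoxia response genes 6 fell, PDK1 (-0.85) and KDM3A (-0.56) among them, and ADM rose by 1.20 (median -0.34), with 3 rises without treated replicate 3 and 3 falls without any one untreated library. Of 17 interferon-stimulated genes 6 fell and 0 rose (median -0.30), including IFIH1 (-0.62), with 3 rises without treated replicate 3 or with median-ratio scaling and 1 or 2 falls without any one untreated library. CD274, encoding PD-L1, was reported as lower by PCR at 24 h in the study. Here, at 6 h, it was at 1.13, 0.605 and 0.617 RPKM untreated and 1.65, 1.60 and 1.03 RPKM treated, with 1 treated library inside the untreated range (0.59, adjusted p = 0.0784). It passed with median-ratio scaling at 0.68 (adjusted p = 0.0369) and without treated replicate 3 at 0.75 (0.0177), and under 5 of 18 alternatives in all. Of 15 NRF2 targets 4 fell, NQO1 by 0.91, and 0 rose (median 0.03), beside 21.2% and 8.84% of all genes. Without treated replicate 3 the counts were 4 higher and 6 lower, and without any one untreated library 2 were lower. Of 21 lysosome and autophagy genes 2 rose, GLA (1.08) and GPNMB (1.13), and 4 fell (median 0.06), near the 8.84% and 21.2% of all genes. Without treated replicate 3 there were 8 higher and 7 lower, and without any one untreated library 2 of each.

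Mitochondrial mRNAs were higher after treatment: 12 of 13 rose and 0 fell, with a median log2 difference of 2.79. MT-CO2, encoding a subunit of cytochrome c oxidase, was at 297, 342 and 234 RPKM untreated and 2208, 1565 and 2236 RPKM treated (2.78, SE 0.20, adjusted p = 0.000356). MT-ND2 was at 42.8, 55.8 and 36.4 RPKM and then 578, 284 and 588 RPKM, and MT-ND1 at 36.5, 41.2 and 26.8 RPKM and then 448, 214 and 425 RPKM. In these 3 genes treated replicate 2 was the lowest of the treated libraries yet several-fold above the untreated ones. As deposited, the gene that did not pass was MT-ND6, the 1 mRNA of the list annotated on the minus strand, at 26.0, 46.4 and 19.6 RPKM untreated and 69.6, 57.2 and 19.6 RPKM treated (0.57, adjusted p = 0.41). Without treated replicate 3 it rose by 1.12 (adjusted p = 0.0139), and all 13 were then called higher. Mitochondrial genes took 0.401% to 0.520% of the RPKM sum in untreated and 1.74% to 2.59% in treated libraries. The rise stood under each scaling tried, with 12 genes called higher also at an equal RPKM sum. Whether the nuclear copies of mitochondrial sequence took up reads is not given in the sources used here.

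Short noncoding RNAs went the same way. Of 72 small nucleolar RNAs 21 rose and 0 fell (median 0.81), with 51 higher and 1 lower without treated replicate 3 (median 1.34). Of 45 small nuclear RNAs 21 rose and 1 fell (0.95), and of 50 RNAs in the miscellaneous class 17 rose and 0 fell, against 877 higher and 2995 lower of 12266 protein-coding genes (median -0.16). RNU4ATAC, of the minor spliceosome, was at 3.23, 1.45 and 0.990 RPKM untreated and 21.1, 11.4 and 8.86 RPKM treated, and RNU4-2 at 54.9, 58.4 and 46.7 RPKM and then 329, 209 and 230 RPKM. RN7SL1 was at 33350, 56070 and 33080 RPKM untreated and 85220, 75520 and 207400 RPKM treated, a 3.0-fold higher mean (1.48, SE 0.47, adjusted p = 0.0495) that missed the threshold with median-ratio scaling (adjusted p = 0.0679). RNVU1-18, a variant U1 gene, showed the largest log2 difference of the named genes (5.97, SE 0.77, adjusted p = 0.00224) and also the widest spread, at 77.1, 7.65 and 17.0 RPKM and then 941, 2621 and 1097 RPKM. SNORA66 was listed at 0.578, 0.868 and 0 RPKM and then 32.6, 10.3 and 9.67 RPKM, SNORA36A at 0.699, 0.525 and 0 RPKM and then 13.3, 3.40 and 19.0 RPKM, and SNORA20 at 0.194, 0 and 0.572 RPKM and then 10.6, 4.78 and 3.65 RPKM. These RNAs have many copies, or lie inside host genes, so the reads given to one of them are uncertain. The same holds for the named pseudogenes, RPL32P29 (-1.89), RPL3P4 (-1.58), EEF1A1P5 (-1.54), GTF2IP4 (-1.57) and TCAF1P1 (-1.20). THBS1-IT1, an intronic transcript of THBS1, was at 0.0349, 0.0315 and 0.0686 RPKM untreated and 4.97, 7.90 and 3.95 RPKM treated, beside the rise of its host gene. Size went along with direction over all genes: the median log2 difference was 0.77 over the 185 genes with at most 300 bases of exon sequence, of which 36.8% rose, and -0.23 over the 2739 genes above 8000 bases, of which 30.2% fell. The part of transcript length and of short RNA recovery in these differences was not tested.

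Dose and time place the 6 h profile. The comparisons with untreated cells share the same 3 untreated libraries, so the levels are given side by side. At 6 h, 0 of 14601 genes (0%) differed between 10 μM and the lower dose in limma, while 1242 had an unadjusted p under 0.05, and without replicate 3 of the 10 μM group 93 passed, 60 higher and 33 lower. A p that misses the threshold does not show equal levels. CCN1 averaged 120 ± 26.1 RPKM at 10 μM and 119 ± 33.6 RPKM at the lower dose, ID1 46.5 ± 4.50 and 49.4 ± 9.62 RPKM, and SAT1 121 ± 12.7 and 126 ± 7.96 RPKM. Means were further apart for ATF3, at 48.1 ± 2.57 and 73.5 ± 4.51 RPKM, for EGR2, at 3.60 ± 0.826 and 7.70 ± 1.11 RPKM, and for CHAC1, at 0.919 ± 0.188 and 3.52 ± 2.90 RPKM, and none of these passed (adjusted p = 0.42, 0.42 and 0.56).

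Between 6 h and 24 h at 10 μM, 1173 of 14920 genes (7.86%) differed in limma, 865 higher at 24 h (5.8%) and 308 lower (2.06%). With median-ratio scaling the split turned to 414 higher and 554 lower, and a fit blocked on replicate number gave 116 higher and 140 lower. The count was 439 without replicate 1 and 3506 without replicate 3 of the 6 h group, and 171, 161 and 195 without replicate 1, 2 or 3 of the 24 h group. Of the 23 immediate early genes 19 were lower at 24 h than at 6 h and 0 higher. CCN1 averaged 120 RPKM at 6 h and 2.84 ± 0.136 RPKM at 24 h, under its untreated mean of 4.49 ± 0.0932 RPKM (24 h minus 6 h, log2 -5.15, adjusted p = 5.89e-06). ATF3 went from 48.1 to 4.90 ± 0.401 RPKM, and FOS from 79.2 ± 8.76 to 8.48 ± 0.762 RPKM with 107 ± 8.46 RPKM in untreated cells. MYC went from 153 ± 30.3 to 95.9 ± 2.34 RPKM (-0.65, adjusted p = 0.0446). The G2 and M phase genes went the other way, with 17 of 24 higher at 24 h than at 6 h and 0 lower, and TOP2A was at 31.2 ± 4.12 RPKM at 6 h and 66.0 ± 1.53 RPKM at 24 h beside 80.0 ± 1.35 RPKM untreated. DBP and DDIT4 were also higher at 24 h, at 18.1 ± 1.63 and 56.3 ± 4.99 RPKM. ID3 stayed low, at 18.6 ± 2.14 RPKM at 24 h (-0.20, adjusted p = 0.286), and SAT1 was at 176 ± 14.0 RPKM at 24 h (0.55, adjusted p = 0.0396), still far under the untreated 640 ± 33.0 RPKM. Of the ribosome biogenesis genes 0 were higher and 3 lower at 24 h than at 6 h, and of the mitochondrial mRNAs 0 passed in either direction, with MT-CO2 at 1110 ± 428 RPKM at 24 h.

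**Figure D5:**
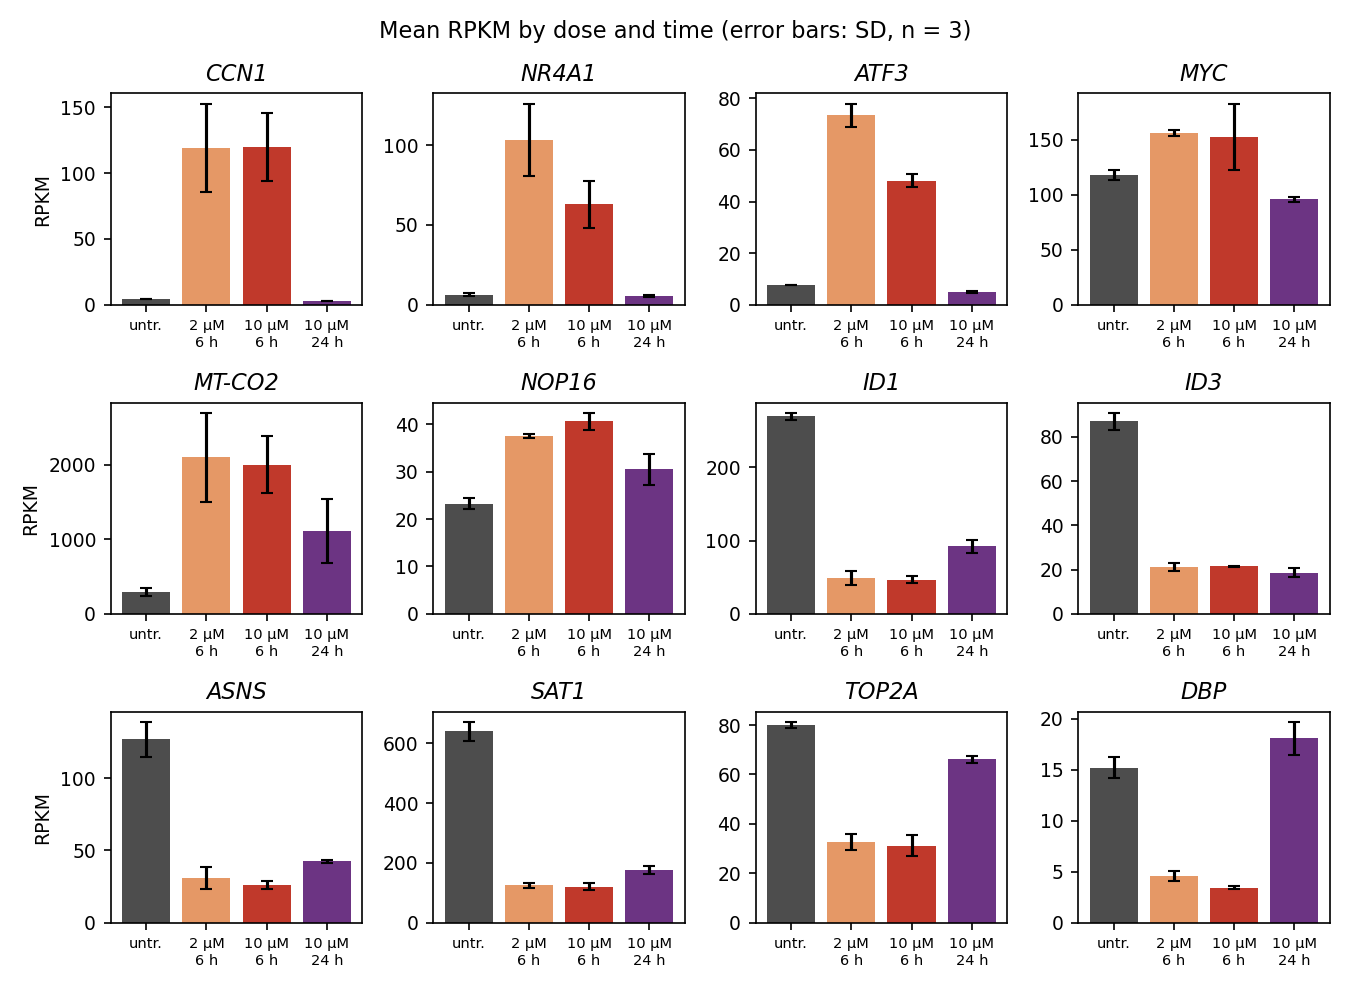
Mean RPKM with SD (n = 3 libraries) of 12 genes in untreated cells, the lower dose at 6 h, 10 μM at 6 h and 10 μM at 24 h. CCN1, NR4A1 and ATF3 are high only in the 6 h groups, ID1, ID3, ASNS and SAT1 are low in all treated groups, and TOP2A and DBP are low at 6 h and higher at 24 h.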

How the data were processed

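The authors deposited 1 table of RPKM values per gene, reads scaled by transcript length and by mapped reads, from rRNA-depleted stranded total RNA. The submitters' processing notes name RSEM without a version, and the aligner, genome build and annotation are not given in the sources used here. Libraries were taken by their descriptions, and gene symbols and biotypes were matched to GENCODE release 29 (57388 of 57992 identifiers). RPKM keeps no depth, so precision was read from the 3 libraries per group.

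Genes with a mean of at least 0.5 RPKM over the libraries compared were tested on log2(RPKM + 0.5) with limma 3.58.1 (eBayes with trend, R 4.3.3), first checked on simulated data, and Benjamini-Hochberg adjusted p under 0.05 over all genes was called. An exact permutation test of 3 against 3 cannot go below p = 0.1. Main fits held only the 2 groups compared. Alternatives covered the pseudocount, filter, scaling, fit and left-out libraries. Named were the 12 largest protein-coding rises and falls and 5 each of other biotypes with the same sign in 3 fits, the members of gene lists with the lowest adjusted p, the genes with the largest share of treated replicate 3, and MYC, MAX, ASNS, SAT1, ID3, EGR2 and CD274. Other genes were chosen after their values were seen. The comparison, its members and the gene lists were chosen with earlier results of these data known. Results for some genes are not reported here.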

Additional observations from a re-analysis of the deposited data

Results flagged for a closer look

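The effect of 10 μM Omomyc was compared between the 2 times by testing 24 h against 6 h directly in limma, in 136 named genes. In 70 of them the levels differed between the times at an adjusted p under 0.05, 36 lower and 34 higher at 24 h, and their log2 differences (24 h minus 6 h, on log2(RPKM + 0.5)) follow in parentheses. Over all genes tested the median of this difference was 0.15, and the values are given without subtracting it. These genes were named partly for their change at 6 h, so movement back from that change at 24 h was favoured by the choice.

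Lower at 24 h were the immediate early and growth factor response genes EGR1 (-3.91), NR4A1 (-3.38), ATF3 (-3.17), FOS (-3.15), EGR3 (-2.97), JUN (-2.89), EGR2 (-2.43), FOSL1 (-1.85), SRF (-1.36), KLF4 (-1.17), KLF6 (-2.02) and PLK3 (-1.27). The secreted and matrix genes CCN1 (-5.15), CCN2 (-4.63), THBS1 (-3.63), CXCL8 (-3.21), CPA4 (-1.87), AREG (-1.41), EREG (-1.13) and DKK1 (-1.16) were lower as well, with the intronic transcript THBS1-IT1 (-3.36). So were the small nuclear RNAs RNVU1-18 (-4.10), RNU4-2 (-1.96) and RNU4ATAC (-1.75), the feedback and stress genes DUSP5 (-2.13), GADD45B (-1.39), GADD45A (-0.90), NFKBIA (-1.05) and ATF5 (-0.73), the sterol genes INSIG1 (-0.67) and HMGCS1 (-0.54), the circadian genes CRY1 (-1.23) and BHLHE40 (-0.74), and MNT (-0.90), MYC (-0.65) and GAR1 (-0.60).

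Higher at 24 h were the ATF4 response and stress genes DDIT4 (2.16), CHAC1 (1.10), AARS1 (0.85), ASNS (0.70) and SLC7A11 (0.61), the cell cycle inhibitors CDKN1C (1.32), CDKN2C (1.18), CDKN1A (0.56) and CDKN1B (0.52), and the mitotic genes CDC25C (1.25), TOP2A (1.08), TTK (0.88) and KIF11 (0.67) with the histone gene H2BC13 (1.60). Higher too were the network genes MXD3 (1.22), MYCL (1.06) and MXD4 (0.61), the p53 targets TP53INP1 (1.03) and BBC3 (0.59) with CCNG2 (1.26), and the clock genes DBP (2.23) and NR1D2 (0.68). So were the hypoxia genes NDRG1 (0.82), PDK1 (0.67) and KDM3A (0.64), the ETS factors ETV1 (0.77) and ETV5 (0.62), and EPHB3 (1.30), ARID5B (1.03), ID1 (0.97), TNIP1 (0.62), HSPA4L (0.62), SAT1 (0.55) and GTF2IP4 (0.59).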

How the results depend on the processing

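Between 10 μM at 6 h and untreated cells, leaving out single libraries gave 1813 to 7565 genes called, with 509 to 2965 higher and 1285 to 4600 lower, the fewest in all and higher without untreated replicate 3, the fewest lower without untreated replicate 1, and the most without treated replicate 3. Median-ratio scaling gave 2136 higher, and an equal RPKM sum gave 7225 in all, 309 higher and 6916 lower, with a median log2 difference of -0.56. Fitting all 5 HCT116 groups gave 2014 higher. Median-ratio scaling without treated replicate 3 gave 7464, of which 3685 were higher, and requiring a log2 difference of at least 1 left 685, 338 higher and 347 lower. Same-numbered libraries deviated together at correlations of 0.0565, 0.148 and 0.0855, so the replicate numbers were not taken as pairs. The replicate block gave 4102 calls, and the block with median-ratio scaling gave 2040 higher and 2053 lower. The block gave 2 calls for 10 μM against the lower dose, 1 higher and 1 lower, and 256 for 24 h against 6 h, 116 higher and 140 lower. Left-out libraries gave 0 to 93 calls between doses, 0 to 60 higher and 0 to 33 lower, and 161 to 3506 calls between times, 71 to 2514 higher and 90 to 992 lower, where median-ratio scaling gave 414 higher and 554 lower. Of 140 genes followed, 93 kept their direction and side of the threshold under every alternative run. The sign turned, at an equal RPKM sum, for LYAR (-0.0485), PUS1 (-0.0678), CD44 (-0.0495), CCNE2 (-0.13), MYC (-0.14) and SRM (-0.0039). The cause of these shifts was not tested. Depth is unknown, which limits genes of low RPKM.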
